A study of Mus musculus with 2 samples.

Results

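Sox13, Sox4, Blk, Maf, Rora and Etv5 are genes known from the innate-like T cells that make interleukin 17, namely the NKT17 subset of invariant natural killer T (iNKT) cells and their gamma-delta T cell counterparts. The 6 genes were picked by name, with their values in these data already known, from the 16386 genes of the deposited tables, and all 6 were found there. RNA was sequenced from stage 1 iNKT cells, which are immature members of a T cell lineage with a semi-invariant receptor. The cells were sorted from thymus, and all mice were C57BL/6 at an age of 5 weeks. The groups were wild type and knockout (KO) for Uhrf1, whose product recruits the methyltransferase Dnmt1 to DNA that has just been replicated. There was 1 library a genotype, so differences could not be checked against replicates and no test was run. How and in which cells Uhrf1 was deleted, and how many mice gave a library, is not given in the sources used here.

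As background, iNKT cells leave the thymus as subsets that resemble helper T cells, and the NKT17 subset is the one that makes interleukin 17. In mouse gamma-delta T cells, the HMG-box factors Sox13 and Sox4 act early in the cells that will make interleukin 17, the Src family kinase Blk is needed for their normal number, and c-Maf (Maf) is needed for their programme. The nuclear receptor RORalpha (Rora) contributes to the programme of interleukin 17-producing T cells, and Etv5 is an ETS factor of the PEA3 group found in the same gamma-delta subset.

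The libraries differed widely beyond these genes. Reads assigned to genes came to 26005824 for the wild-type library and 12189849 for the KO library. Expression is given as FPKM, which corrects fragments for transcript length and library size. Here "rose" and "fell" mean a log2((KO FPKM + 1) / (WT FPKM + 1)) of at least 1 in size at a mean FPKM of at least 1. Of 9955 genes at that mean, 2354 (23.6%) fell and 2116 (21.3%) rose. Uhrf1 itself had a wild-type FPKM of 35.3 and a KO FPKM of 0.626, on 3032 and 25 reads. Both the T lineage gene Cd3e (239.75 and 271) and Zbtb16 (114 and 41.9), which encodes the iNKT factor PLZF, were present in both libraries, the values being wild-type and KO FPKM. Genes of the T cell receptor constant regions were not analysed here.

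Promoter sequence is shown for 3 members because Sox13 and Rora were among those that fell and Sox4 was not. Each sequence is the 250 bases before the transcript start that the RefSeq promoter window uses in GRCm38.p6 (also called mm10), 5′ to 3′ on the strand of the gene. The RefSeq spans of Sox13 and Rora given further on reach upstream of that start. The Rora window thus lies inside its span, and the Sox13 window does so except for its few most upstream bases. The Sox4 window lies before its gene. Capitals mark CpG dinucleotides, the sites whose methylation Uhrf1 helps to copy.
Sox13, chr1:133424213-133424462, minus strand: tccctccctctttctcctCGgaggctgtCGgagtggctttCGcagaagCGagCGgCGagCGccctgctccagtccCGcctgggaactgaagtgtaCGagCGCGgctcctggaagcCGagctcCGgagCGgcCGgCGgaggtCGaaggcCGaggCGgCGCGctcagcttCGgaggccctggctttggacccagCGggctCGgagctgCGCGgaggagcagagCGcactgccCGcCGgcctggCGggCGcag
Rora, chr9:68653536-68653785, plus strand: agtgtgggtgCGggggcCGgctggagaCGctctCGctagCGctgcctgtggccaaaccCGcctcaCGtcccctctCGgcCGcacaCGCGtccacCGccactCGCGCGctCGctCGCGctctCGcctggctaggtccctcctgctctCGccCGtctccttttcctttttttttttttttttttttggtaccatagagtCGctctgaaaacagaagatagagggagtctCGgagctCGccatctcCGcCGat
Sox4, chr13:28953700-28953949, minus strand: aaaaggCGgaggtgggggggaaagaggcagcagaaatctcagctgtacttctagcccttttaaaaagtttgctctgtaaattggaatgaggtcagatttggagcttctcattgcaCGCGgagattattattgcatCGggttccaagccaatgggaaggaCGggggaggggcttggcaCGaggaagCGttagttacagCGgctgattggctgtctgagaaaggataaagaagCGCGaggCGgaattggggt

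The Sox13 window held 31 CpG, the Rora window 26 and the Sox4 window 11. Because the windows shown were picked on whether their genes fell, nothing is read from comparing these counts. Of 32851 RefSeq windows of the same length, the median held 6 CpG, and 5.19%, 9.59% and 35.6% held at least as many as Sox13, Rora and Sox4. The 2 windows of Etv5 held 27 and 18. Windows were found for 4 of the 6 members (66.7%), without Blk and Maf, so a comparison of promoter CpG over the 6 genes would be void and none was made. DNA methylation was not among the values used here. The windows were also searched on both strands for an E-box (CANNTG), HMG-box cores (ACAAAG and ACAATG), a ROR core (AGGTCA), a Maf core (TGCTGA) and an ETS core (CGGAAG). The Sox4 window held 1 E-box and 1 ROR core, an Etv5 window held 2 E-boxes, and the Sox13, Rora and other Etv5 windows held none of these motifs. Of all windows, 66.2% held an E-box, 14.0% a ROR core, 16.1% a Maf core and 13.6% an ETS core. ACAAAG stood in 16.5% of them and ACAATG in 10.7%. A match describes the letters of the window and does not make it a binding site.

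Of the 6 members, 5 reached the mean FPKM of 1, and 4 of these fell while none rose. Of all measured genes 23.6% fell, but the 6 were chosen on this contrast, so nothing is read from the comparison. The median log2 ratio of the 5 measured members was -4.47, against -0.0048 over all measured genes. Sox4 was the measured member that did not fall. Etv5 lay below the filter on expression. The summed FPKM of the 6 genes was 207 for wild type against 34.3 for the KO, and Sox4 made up 17.4% of the first sum and 94.2% of the second. These sums include Maf, whose level relative to other genes is uncertain, as given further on.

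**Figure D1:**
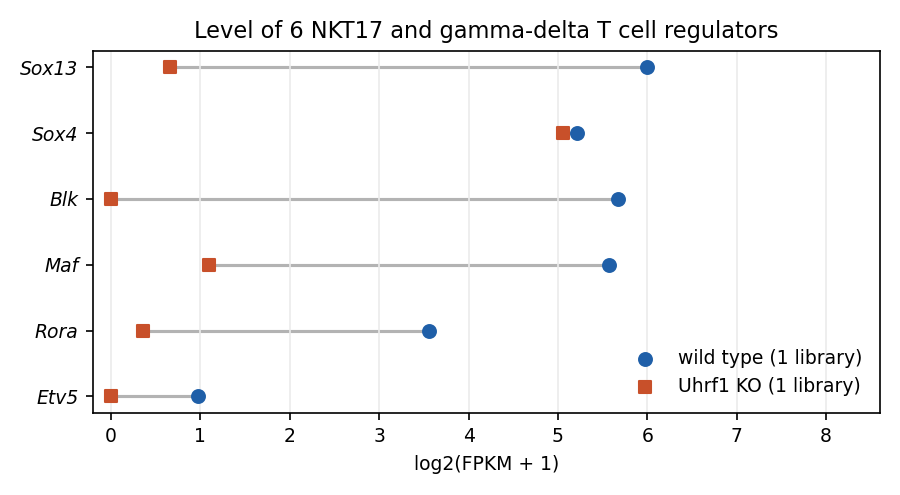
Level of each member in the wild-type library (blue circle) and the Uhrf1 KO library (orange square), as log2(FPKM + 1) on the horizontal axis, with a grey line joining the 2 values of a gene. Sox13, Blk, Maf and Rora lie far apart between the libraries, the 2 Sox4 points nearly coincide at an FPKM of 36.0 and 32.3, and Etv5 is near the bottom of the scale in both.

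Sox13 encodes an HMG-box factor of the SoxD group and lies on chromosome 1 at 133382300 to 133424459. Its FPKM was 62.8 for the wild-type library against 0.584 for the KO library, on 4221 and 17 reads. The wild-type library was thus high and the KO library close to 0. By the scaled counts of the files, which put both libraries on the same total, Sox13 was 116-fold lower in the KO (95% exact interval 72.6 to 199.97). These intervals account for counting error alone: without molecular identifiers, PCR copies of a molecule are counted as separate reads. Because the libraries are bulk RNA, fewer cells that express a gene and less of its RNA per cell cannot be told apart.

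Sox4, a SoxC factor that also acts in other T and B cell precursors, lies on chromosome 13 at 28948919 to 28953699. Both libraries were high, at an FPKM of 36.0 for wild type and 32.3 for the KO, on 1821 and 734 reads. Its log2 ratio was -0.15, and by scaled counts it was 1.16-fold lower in the KO (interval 1.07 to 1.27). Sox13 was thus above Sox4 in wild-type cells, at 62.8 against 36.0, and below it in KO cells, at 0.584 against 32.3. Of 760 measured genes with a wild-type FPKM of 28.8 to 45.1, 368 had a log2 ratio as low as that of Sox4 or lower, Sox4 included.

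Blk, a Src family tyrosine kinase best known from B cells, lies on chromosome 14 at 63372837 to 63417187. Its wild-type FPKM was 49.98, and it was at 0 in the KO. The reads numbered 2885 and 0, and a count of 0 allows up to 3 reads in the KO library. Against that floor Blk was at least 451-fold lower in the KO. Such low counts were not particular to Blk: of 6730 genes with a wild-type FPKM of at least 5, 321 had at most 3 reads in the KO library. Of 9955 measured genes, 7 had a log2 ratio as low as that of Blk, Blk included, and 11 had one as low as that of Sox13.

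Maf, which encodes the basic leucine zipper factor c-Maf, lies on chromosome 8 at 115703253 to 115706894. Its FPKM was 46.4 for wild type against 1.13 for the KO, so both libraries had signal and did so at very different levels. Its 7689 and 97 reads gave a 37.2-fold lower value in the KO (interval 30.4 to 45.9). Maf had more reads than Sox13, Blk or Rora in both libraries, and its fold lies near the 39.7-fold of Rora given below. At the FPKM of Maf, its wild-type reads correspond to a transcript of 6378 bases, while its locus in the files spans 3642 bases, so its level relative to other genes is uncertain. The KO values correspond to 7027 bases, and the FPKM of Maf was 40.9-fold lower in the KO, near the 37.2-fold of the scaled counts.

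Rora, the gene of the nuclear receptor RORalpha, lies on chromosome 9 at 68653404 to 69388246. Its FPKM was 10.8 for wild type against 0.28 for the KO, on 423 and 5 reads, which is 39.7-fold lower (interval 16.9 to 123). The transcript 9530091C08Rik has the same locus as Rora in the files and had 577 and 3 reads. As the labels do not say whether counting used strand, reads of the pair cannot be told apart.

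Etv5 lies on chromosome 16 at 22381313 to 22439570. The gene had a wild-type FPKM of 0.961 and was at 0 in the KO, and its mean of 0.48 was below the limit of 1, so it was not counted as measured. Its reads numbered 110 and 0, at least 17.2-fold lower in the KO. On the FPKM + 1 scale the log2 ratio was -0.97, because the pseudocount understates changes of low genes. Measured on the scaled counts after bringing both libraries to a common total, a scale with no correction for length, Etv5 passed the same limits and had a log2 ratio of -2.39.

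In the wild type the order of the levels by FPKM was Sox13, Blk, Maf, Sox4, Rora and Etv5. The place of Maf in this order is uncertain, because its reads did not match the length of its locus. In the KO it was Sox4, Maf, Sox13 and Rora, with Blk and Etv5 at 0. With 1 library a genotype, no spread between samples can be set beside either order.

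**Figure D2:**
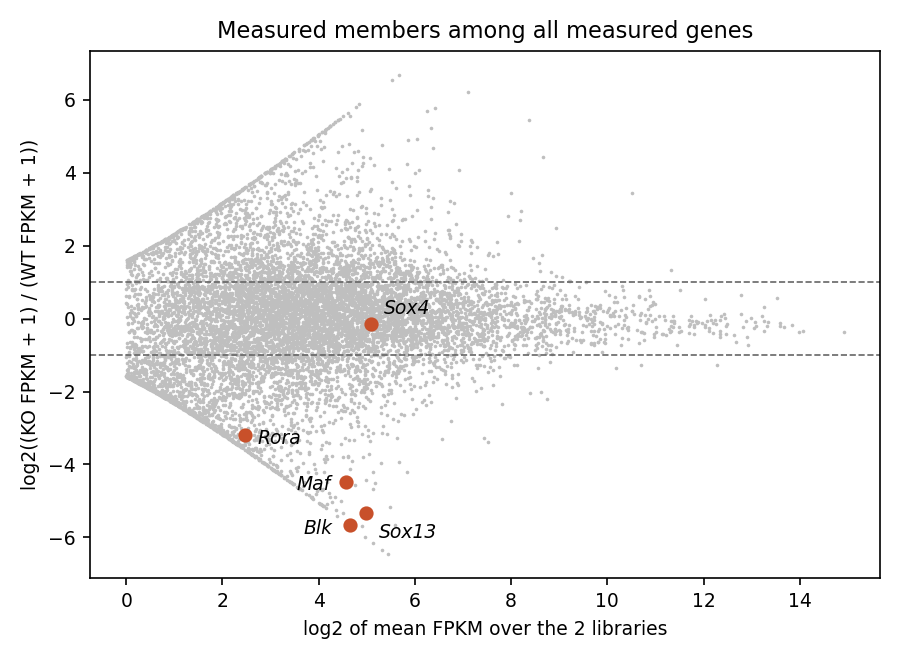
All 9955 measured genes (grey points), with the log2 of the mean FPKM on the horizontal axis and log2((KO FPKM + 1) / (WT FPKM + 1)) on the vertical axis. Dashed lines mark a log2 ratio of 1 in either direction. The 5 measured members are in orange. Blk and Sox13 lie near the lower edge, Maf and Rora below the lower line at -4.47 and -3.20, and Sox4 lies near 0 at -0.15.

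For each member the 2 genes closest to it in log2(FPKM + 1) over the 2 libraries were found, by straight-line distance. Closest to Sox13 were the histone gene Hist1h1a (59.6 and 0.182, distance 0.43) and Msrb2 (43.6 and 0.394, distance 0.55), as wild-type and KO FPKM. Closest to Blk were Macrod1, whose locus is shared with another gene (49.4 and 0, distance 0.017), and the cytotoxic protease gene Gzma (45.4 and 0.156, distance 0.25). Tssc1 (52.6 and 1.26) and Slc25a38 (48.6 and 1.83) were closest to Maf, at distances of 0.20 and 0.41. Ndufaf7 (10.4 and 0.312) and Alkbh3, whose locus is shared (11.2 and 0.315), were closest to Rora, at distances of 0.059 and 0.063. Gfer and Exosc3 were closest to Sox4 (0.010 and 0.0153), and Kcnq5 and Dapk1 to Etv5 (0.00070 and 0.0029). Likeness over 2 libraries says little, since many genes take the same pair of values.

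Relatives of the members by protein family gave a mixed picture, with several other factors at 0 in the KO. The files held 25 relatives in the Sox, Src kinase, Maf, ROR and PEA3 families, and 9 of them reached the mean FPKM of 1. Of these 9, 5 fell and 3 rose, where 23.6% of all measured genes fell and 21.3% rose.

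Among Sox genes, Sox10, known from the neural crest, fell from an FPKM of 8.24 to 0 on 388 and 0 reads, at least 60.6-fold. Sox5, the SoxD relative of Sox13, had 0.922 and 0.0644, and Sox12, the SoxC relative of Sox4, had 0.826 and 0.0237, both below the limit on mean FPKM. Sox13 made up 57.7% of the summed FPKM of the 12 Sox genes in the wild type, and Sox4 made up 97.9% of it in the KO. The Sox genes were thus mainly Sox13 and Sox4 in the wild type and almost wholly Sox4 in the KO.

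The PEA3 family was at 0 in the KO, and Rorb, a relative of Rora, had 0 and 1 reads. Etv4, a PEA3 relative of Etv5, fell from 9.24 to 0 on 430 and 0 reads, at least 67.2-fold, and Etv1 was at 0 in both libraries. Etv4 made up 90.6% of the PEA3 sum in the wild type, so Etv5 was the minor member of its group.

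In the Maf family, the small Maf proteins Mafg and Mafk, which lack an activation domain and pair with other leucine zipper factors, also fell. Mafg fell from 33.6 to 0 on 1265 and 0 reads, at least 198-fold, and Mafk from 9.52 to 1.54, 6.17-fold (interval 4.65 to 8.35). Bach2, a partner of small Maf proteins, rose from 0.358 to 9.88, and its locus is shared with another gene.

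Among Src family kinases, those that serve the T cell receptor did not fall with Blk. Lck, which starts receptor signalling, rose from 501 to 1006, at a log2 ratio of 1.00 that lies on the limit, and Fyn had 32.4 and 31.7. Lyn, a kinase of B and myeloid cells that shares its locus in the files, rose from 0.343 to 4.75. Src itself (1.67 and 0) and Fgr (1.64 and 0.278) were below the limit on mean FPKM. The summed FPKM of the family was 588 for wild type against 1043 for the KO, with Blk at 8.50% of the first sum. Of 14 measured kinases and regulators other than Blk, 5 rose and 1 fell, with a median log2 ratio of 0.47. The ubiquitin ligase gene Cblb rose from 2.09 to 15.4, its relative Cbl fell from 8.24 to 1.47, and Matk, an inhibitory kinase of the Csk group, rose from 11.9 to 50.5.

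**Figure D3:**
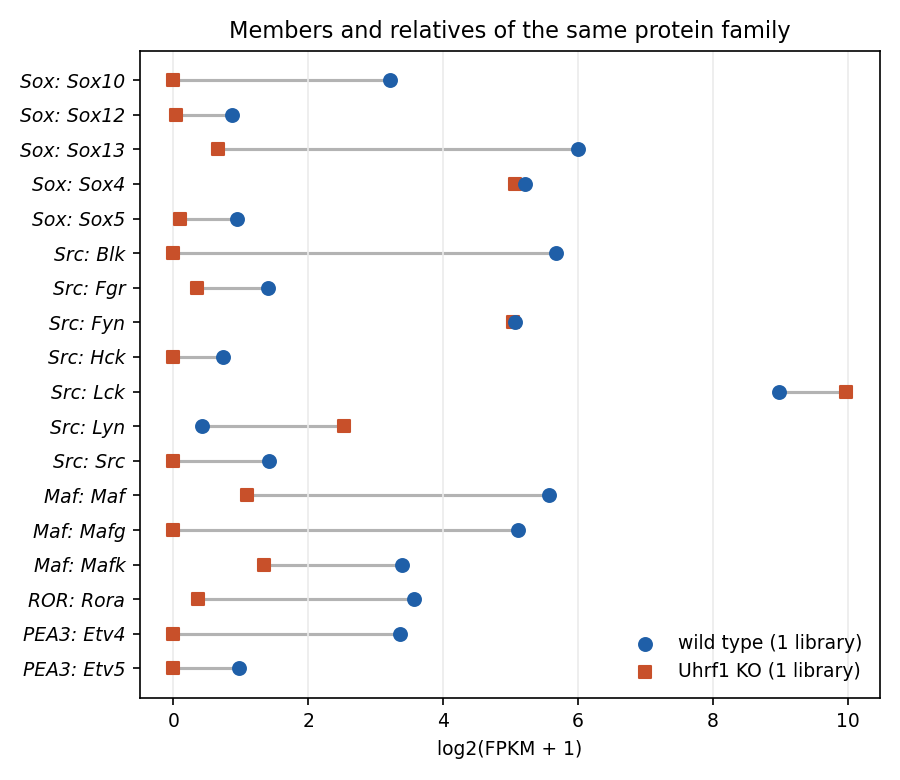
The members and named relatives with an FPKM of at least 0.5 in either library, as log2(FPKM + 1), with the family before each gene name. Blue circles are the wild-type library and orange squares the Uhrf1 KO library. Sox10, Blk, Mafg and Etv4 lie at 0 in the KO, Fyn and Sox4 barely differ, and Lck and Lyn are higher in the KO.

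Other genes of the interleukin 17 programme included 10 that fell and 3 that rose. Of 30 genes of that list found beside the members, 23 were measured, and their median log2 ratio was -0.77. The list was written with earlier results of these data known. To set beside this count and those of the lists below, 23.6% of all measured genes fell and 21.3% rose. The scavenger receptor gene 5830411N06Rik, a marker of gamma-delta T cells that make interleukin 17, fell from an FPKM of 14.2 to 0.626, 24.1-fold (interval 15.1 to 40.8). The chemokine receptor gene Ccr2 fell from 23.4 to 3.31, 6.57-fold (interval 5.86 to 7.38). Irf4, a factor needed by helper T cells that make interleukin 17, fell from 5.50 to 0.21 on 927 and 17 reads.

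Other genes of the programme fell, stayed within the limit or rose. Cd163l1, a second scavenger receptor of the same gamma-delta subset, had 11.8 and 5.45 at a log2 ratio of -0.99, just short of the limit. By scaled counts it was 2.30-fold lower in the KO (interval 1.95 to 2.74). Among genes named after their values were seen, Zbtb16 fell from 114 to 41.9 and Il7r, the interleukin 7 receptor, from 77.2 to 34.9. The 3 that rose, also named on their values, were Ltb (80.95 and 207), Itgb7 (74.5 and 207) and Il21 (0.70 and 3.65). Il1r1 had 2.43 and 2.44, and Ccr6 was at 0 in both libraries, both likewise picked after the fact. Il17a, Il17f, Il22 and Il23r were not analysed here.

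Genes that c-Maf acts on in T cells changed in both directions. Of 8 measured targets other than the members, 4 fell and 3 rose, with a median of -0.98. Cxcr5, the receptor that guides cells to B cell follicles, fell from 8.52 to 0.635. Icos, named after its values were seen, fell from 247 to 62.0. Ctla4 rose from 0.353 to 5.01 and Bcl2, which blocks cell death, from 1.90 to 77.7. Among HMG-box relatives outside the Sox family, Tox, a factor of T cell selection, fell from 40.7 to 12.1, and Tcf7l1, whose locus is shared, fell from 1.98 to 0.0373 on 120 reads and 1 read. Lef1 rose from 114 to 244, and its partner Tcf7, chosen after its values were seen, had 181 and 97.1.

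Of 7 measured genes that ERK signalling induces together with PEA3 factors, 5 fell and 1 rose, with a median of -1.66. The feedback inhibitors Spry2 (6.41 and 0.195) and Spry1 (3.87 and 0) fell, as did the phosphatase gene Dusp5 (2.57 and 0.134, on 44 reads and 1 read) and Phlda1 (18.8 and 4.88). Egr1, an immediate target of ERK, rose from 18.4 to 46.0 and was named after its values were seen. Dusp6, another phosphatase gene among the 7, had 5.62 and 8.41, at a log2 ratio of 0.51. Myc fell at a log2 ratio of -1.01, close to the limit, and both were likewise named after the fact. ETS factors outside the PEA3 group mostly stayed within a log2 ratio of 1. Of 13 measured ETS genes other than Etv5, 2 fell, Etv4 and Gabpa (2.90 and 0.494, shared locus), and 1 rose, Erf (0.080 and 8.19). With a limit of 0.5 in place of 1, 6 of the 13 fell and 3 rose. At that limit 34.6% of all 9955 measured genes fell, and 3332 rose.

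**Figure D4:**
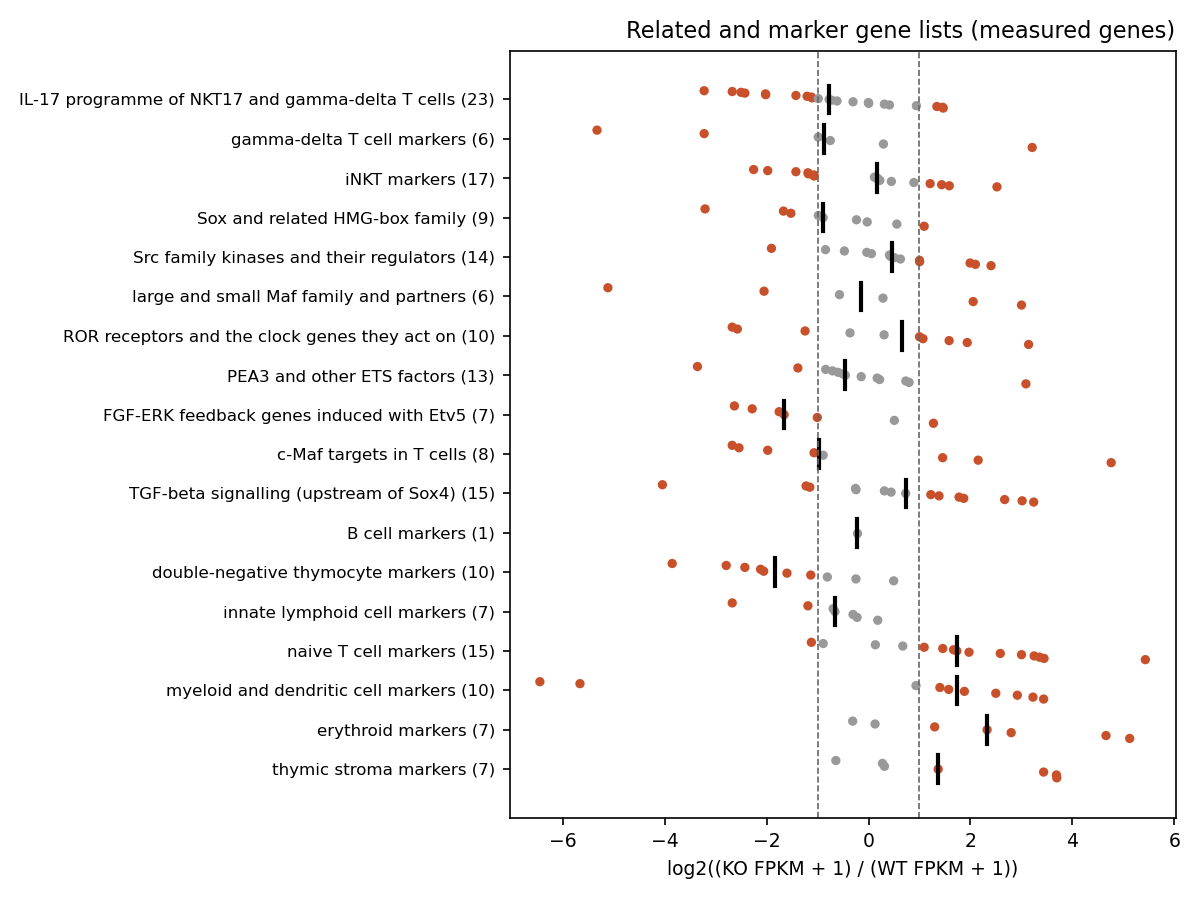
Log2((KO FPKM + 1) / (WT FPKM + 1)) of the measured genes of each list, without the 6 members, with the number measured in brackets. Orange points lie at or beyond a log2 ratio of 1 (dashed lines), grey points within it, and black bars are list medians. The interleukin 17 list has a median of -0.77, the ERK feedback list of -1.66, and the naive T cell list of 1.73.

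The genes beside the members on the chromosome did not share a direction. Of 12 flanking genes in the files, 8 were measured, 2 rose and 2 fell, with a median of 0.011. Fam167a, 19.2 kb from Blk, fell from 2.63 to 0 on 328 and 0 reads, at least 51.2-fold. The transcript 2610307P16Rik, 65.3 kb from Sox4, fell from 2.005 to 0, while Cdkal1 on the other side of Sox4 rose from 1.85 to 13.0. Wwox, 351 kb from Maf, rose from 0.112 to 2.80. Around Sox13, Etnk2 at 1.98 kb had 8 and 0 reads, and Snrpe had an FPKM of 1178 and 1247. Narg2 and Vps13c beside Rora, and Tra2b beside Etv5, had log2 ratios of 0.31, -0.34 and -0.061. Dgkg, 27.0 kb from Etv5, had 173 and 0 reads at an FPKM of 0.989 and 0. Neil2 and Dynlrb2 were at 0 in both libraries.

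Markers of several other cell types also differed between the libraries, some lists being lower and others higher in the KO. Of 10 measured genes in a list for early thymocytes without CD4 and CD8, 7 fell and none rose. The summed FPKM of the 15 found was 110 for wild type against 38.7 for the KO. Which cells the RNA of these genes came from was not tested. Cd24a fell from 15.5 to 0.142, Hhex from 14.6 to 1.248, Rag1 from 13.3 to 1.66 and Hes1 from 18.7 to 3.53. Kit, a marker of the earliest thymocytes, had 0.40 and 0, and Erg was at 0 in both. Naive T cell markers went the other way, with 11 of 15 risen and 1 fallen, and sums of 856 and 2927. Dapl1 rose from 14.1 to 651, Ms4a4b from 42.3 to 471 and S1pr1 from 3.48 to 44.9. Their part in the values of the members was not tested.

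For Blk, B cells are another known source. Of 12 B cell markers found, 7 were at 0 in both libraries, among them Ms4a1, Pax5 and Cd22. The summed FPKM of the 12 was 17.7 against 16.7, nearly all of it from Cd79b (17.4 and 14.8). The part of B cells in the value of Blk was not tested.

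Gamma-delta T cell markers could be read in part, since genes of the gamma and delta receptor chains were not analysed here. Of 6 measured markers other than the members, 2 fell, 1 rose and 3 did neither, with sums of 1136 and 1339 over the 7 found. Gzma fell from 45.4 to 0.156 and Fcer1g rose from 19.8 to 191, while Id3, the E protein inhibitor that gave the largest share of both sums, had 827 and 1013. A share of gamma-delta T cells in the wild-type library was therefore not tested. Of 7 measured innate lymphoid cell markers, 2 fell, among them Gata3 (56.9 and 24.4), and Id2 had 328 and 280. The summed FPKM of the 11 found was 502 and 421.

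The summed FPKM of myeloid, erythroid and stromal markers was higher in the KO, though not every marker rose. Of 10 measured myeloid markers 7 rose and 2 fell (sums 835 and 3731), of 7 erythroid markers 5 rose (333 and 1357), and of 7 stromal markers 4 rose (43.6 and 111). Apoe rose from 246 to 2677, Fcgr3 from 0.756 to 15.4, Car2 from 0.0344 to 35.1, Hbb-b1 from 5.40 to 161, Col3a1 from 0.688 to 20.9 and Krt18 from 0.365 to 16.6. The neutrophil genes S100a8 (86.4 and 0) and S100a9 (95.6 and 0.908) fell. Of the stromal list, Ccl25 had 10.1 and 6.15, and Epcam (1.07 and 0) and Krt5 (0.218 and 0) were below the limit on mean FPKM. Klf1 and Slc4a1 of the erythroid list, Cd14 and Itgax of the myeloid list and Krt8 of the stromal list were at 0 in both libraries. Among iNKT markers, 7 of 17 fell and 4 rose, with sums of 3406 and 3526. Cd69 rose from 6.74 to 43.4 and Slamf1 from 1.20 to 5.59, and Klrb1c, which encodes NK1.1, fell from 4.42 to 0.135. No value of the members was adjusted for any of these lists, and their part in the differences was not tested.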

How the data were processed

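Per the labels' protocols, cells were stained with surface antibodies, sorted on an Aria II and lysed in Trizol, and libraries were made with the TruSeq RNA kit. The submitters' processing notes name the tools TopHat2 2.0.9 and Cufflinks 2.1.1 and the build mm10; annotation, filters and the role of each tool are not stated there. The authors deposited an FPKM per gene, per the file headers. They also deposited a column that the headers call a count, whose values behave as a scaled signal, built for most genes from steps of 0.799 (wild type) and 1.70 (KO). Dividing by these steps gave reads, whole within 0.01 of a read for 98.3% and 98.7% of nonzero genes.

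The log2 ratio used FPKM with a pseudocount of 1. Folds are ratios of scaled counts with 95% Clopper-Pearson intervals from reads, and where the KO had 0 reads, lower bounds against a floor of 3 reads per library. The members and the 18 other gene lists were chosen with earlier results of these data known, and members are left out of the counts of other lists. Genes named were the members, measured relatives of their families, up to 4 members of every list with the largest change, chromosomal neighbours and the 2 genes nearest in level; every other name, such as relatives below the limit, genes at 0 in both libraries and further list genes, was picked after seeing its values. A few genes are not reported here. Gene coordinates and promoters are from RefSeq GRCm38.p6. The alternatives numbered 11. The steps were tested on simulated data. Software was Python 3.11.15 with scipy 1.17.1, numpy 2.4.6, matplotlib 3.10.9 and pandas 2.3.3.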

Additional observations from a re-analysis of the deposited data

How the results depend on the processing

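The count of 4 fallen members was the same under 10 of the 11 alternatives, and with the scaled counts, brought to a common total, in place of FPKM it was 5, with Etv5 added. No member's log2 ratio changed sign. Over the 7 alternatives in which it was recomputed, the ratio ran from -6.52 to -3.60 for Sox13, from -8.97 to -3.46 for Blk and from -5.24 to -3.07 for Maf. It ran from -4.84 to -1.58 for Rora, from -0.28 to -0.14 for Sox4 and from -3.41 to -0.25 for Etv5. Taking the highest row per symbol could not move a member or the count of fallen members, as no member symbol is repeated. Rescaling the KO library could not move Blk or Etv5, which were at 0 there. The median of the measured members was -5.24 with a pseudocount of 0.1, -3.07 with one of 5 and -5.05 by scaled counts. Over all genes 1254 fell and 1292 rose with a pseudocount of 5, 1247 fell at a mean FPKM of at least 5, 1026 fell and 851 rose at a size rule of 2, and 3332 rose at one of 0.5. In the interleukin 17 list 6 fell at a mean FPKM of at least 5, and 6 fell and 0 rose at a size rule of 2. Of all measured genes, 17.8% fell at that mean and 10.3% at that size rule. Rescaling to the upper quartile moved the median of all measured genes to -0.13. Over all lists, 327 of 396 recomputed counts stayed within 1.5 times the count given. The 327 include counts of 0 that stayed at 0 and all counts with the highest row per symbol, which did not change. No paired analysis was possible because each genotype had 1 library. Leaving out a library was not possible for the same reason. The KO library was the shallower, so a gene at 0 there may still have up to 3 reads' worth of RNA.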

Other observations

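Genes of the clock that RORalpha acts on moved both ways. Of 10 measured genes of that list other than Rora, 5 rose and 3 fell, with a median log2 ratio of 0.65. Nr1d1, a repressor that competes with ROR receptors for their sites, fell from an FPKM of 4.96 to 0 on 261 and 0 reads, at least 40.8-fold. Arntl, which encodes the clock activator BMAL1 and is repressed by Nr1d1, rose from 1.35 to 8.01, 5.93-fold (interval 4.73 to 7.49). Dbp rose from 0.228 to 9.84 on 6 and 114 reads, and its locus is shared with another gene.

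Genes of TGF-beta signalling, which raises Sox4 in other T cells, changed in both directions beside a Sox4 that had 36.0 and 32.3. Of 15 measured, 7 rose and 3 fell, with a median of 0.73. The inhibitory Smad genes rose, Smad7 from 4.27 to 32.6 and Smad6 from 0.0192 to 8.64 on 1 and 217 reads, and the receptor gene Tgfbr3 rose from 0.649 to 12.3. Smad3, which carries the signal to the nucleus, fell from 17.4 to 0.113, a ratio of 158 on 2362 and 7 reads (interval 76.6 to 394). With 1 library a genotype these are values of the libraries, and no hypothesis was tested on them.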
